A study of Homo sapiens with 72 samples.

Results

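The comparison described here sets U2OS cells given triptolide at 10000 nM (3 wells) against cells given DMSO, the solvent (18 wells), out of 72 wells of population RNA-seq in the series. The wells were chosen by their labels, which name the compound by the code JAA804 and the treatment as Triptolide. U2OS is a human osteosarcoma line, and all wells were grown in 24-well plates, treated for 12 h and collected once. The series also holds 5 other compounds, of which only homoharringtonine at 10000 nM (3 wells) was used here, together with triptolide at 1000 nM (3 wells). The sources call the wells of a group triplicates or number them, and nothing says that they came from separate cultures, so p-values measure the spread between wells only.

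Triptolide, a diterpenoid of the thunder god vine, binds the XPB helicase (ERCC3) of TFIIH, the general factor that opens DNA at promoters for RNA polymerase II. Once initiation stops, an mRNA that is degraded fast disappears and one that is degraded slowly makes up a growing share of what is left. Transcripts of the mitochondrial genome are made by a separate polymerase, POLRMT, which does not use TFIIH. Because there was 1 time point, the values below are levels left at 12 h relative to the other RNAs of the same well, not decay rates.

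The deposited expected counts, RSEM's estimates of reads per gene, summed to between 34.7 and 38.6 mil in the triptolide wells and to between 0.460 and 56.4 mil in the DMSO wells (median 36.8 mil), the shallowest being DMSO replicate 10. Inferred fragment lengths lay between 178 and 197 bases with triptolide and between 144 and 217 with DMSO. Of 8 markers of mesenchymal and osteoblast cells, 6 had a median of at least 1 TPM (length-scaled transcript abundance) in DMSO wells, led by SPARC and VIM, whereas COL1A2 was near 0 and TWIST1 was listed at 0. Of 10 markers of epithelial, blood, liver and neural cells, SYP and EPCAM exceeded that level, and the sum of all 10 lay between 12.2 and 15.8 TPM with triptolide and between 11.2 and 35.6 TPM with DMSO.

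Genes were tested with edgeR's quasi-likelihood test, and a gene was called where the Benjamini-Hochberg adjusted p-value (padj) was under 0.05 and the log2(Fold Change) was above 1 or below -1. Levels are CPM, counts scaled to library size, after TMM scaling, which sets the bulk of the genes near no change. Of 18536 genes tested, 5602 (30.2%) were called lower with triptolide and 3005 (16.2%) higher, and the genes tested had a median log2(Fold Change) of -0.17. Losses ran deeper than gains. 1673 genes were called lower beyond a log2(Fold Change) of -3 and 368 beyond -5, while 20 genes were called higher beyond 3. In 3942 of the genes called lower, all 3 triptolide wells lay below all 18 DMSO wells, and in 2522 of those called higher they lay above. Among all genes tested the triptolide wells lay wholly below in 25.5% and wholly above in 23.7%.

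The choice of scale sets where the line between loss and gain falls. Against the 13 mitochondrially encoded mRNAs, that median was -2.92, a shift of -2.75, and 18041 genes were called lower and 8 higher. With library sizes alone the shift was -0.53. "Higher" and "rose" below therefore mean relative to the bulk of the genes, and fewer cells and less RNA per cell cannot be told apart. On the mitochondrial scale 43 of the 44 gene lists described here had a median below 0. The exception was the mitochondrially encoded mRNAs themselves, whose median near 0 (0.057) follows from the scaling.

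Of the 10 protein-coding genes left at the lowest relative levels, among those with at least 10 CPM in DMSO wells and no overlap between groups, 9 are named here: CHAC1, SERTAD3, IER5, NFKBIA, C15orf39, BTG1, SNAI1, EFNA4 and HPS6. Their log2(Fold Change) ran from -7.83 for CHAC1 to -6.90 for HPS6. CHAC1 degrades glutathione and is induced by ATF4, IER5 is an immediate early protein, NFKBIA is the inhibitor IkB-alpha that its own target NF-kB induces, BTG1 recruits the CCR4-NOT deadenylase and SNAI1 is a zinc finger repressor of epithelial genes. IER5 measured 0.390, 0.320 and 0.465 CPM in the 3 triptolide wells, against 58.1 at the lowest, 76.9 at the median and 114 at the highest DMSO well. NFKBIA measured 0.117, 0.213 and 0.271 CPM against 25.7, 33.4 and 41.8 CPM. The triptolide wells thus held the transcripts at levels 198 and 165 times lower, with no overlap between groups (padj = 8.17e-19 for IER5 and 1.07e-18 for NFKBIA, edgeR). Across the 3 wells these values rest on 31 and 16 reads.

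AU-rich elements, in which the pentamer ATTTA or the longer TATTTAT recurs, are a known class of 3′ untranslated sites bound by decay factors such as ZFP36. Of the 10 genes, 5 carried TATTTAT in the 3′UTR of their canonical GENCODE transcript, and 1 site of each is shown as an example. Genes of the 10 without it, such as SERTAD3 (-7.65) and EFNA4 (-6.96), were left at similarly low levels. The sequences are from GENCODE release 44 on GRCh38, 5′ to 3′ on the transcript's strand, with the match in capitals:
IER5, chr1:181091981-181092007, plus strand: cataataatgTATTTATagaattaaac
NFKBIA, chr14:35401700-35401726, minus strand: ccacattttaTATTTATtgtgcttcga
BTG1, chr12:92140771-92140797, minus strand: atagatttctTATTTATctgaaggtat
SNAI1, chr20:49988778-49988804, plus strand: ggtacactggTATTTATatttcaaaca
CHAC1, chr15:40955960-40955986, plus strand: cttgaaacttTATTTATtgcaccatgt

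IER5 had 4 such matches in a 3′UTR of 3014 bases and NFKBIA 2 in 500 bases, while BTG1, SNAI1 and CHAC1 had 1 each. SERTAD3 and C15orf39 held the pentamer only, and EFNA4 and HPS6 held neither. The heptamer is common: 5064 of 14336 tested protein-coding genes with an annotated 3′UTR (35.3%) held it. Genes with no match had a median log2(Fold Change) of -0.00085, those with 1 match -0.40, those with 2 matches -0.51 and those with 3 or more -0.49. The share called lower was 28.7% without a match and 36.3%, 38.5% and 37.3% with 1, 2 and 3 or more. Longer 3′UTRs hold more matches by their length, and length itself went with lower levels: the median fell from 0.34 in the shortest quintile to -0.43 in the longest. Within 3′UTRs of 1000 to 2000 bases the medians were -0.21, -0.40, -0.42 and -0.60 for 0, 1, 2 and 3 or more matches, the last over 112 genes.

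Exon number separated genes more than the heptamer did. Of 343 tested protein-coding genes with 1 exon, 59.2% were called lower and 9.91% higher, with a median log2(Fold Change) of -1.53. Genes with 2 exons (745) gave 59.2% and 6.58%, with a median of -1.63. In genes with 3 to 4 exons the share called lower was 41.8%, with 5 to 10 exons 29.8%, and with over 10 exons 24.8%. Over all 14382 protein-coding genes it was 31.6%. Without the genes named ZNF, the first 3 shares were 59.1%, 58.5% and 37.4%. IER5 and HPS6, with 1 exon, and SERTAD3 and BTG1, with 2, belong to these classes.

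**Figure D1:**
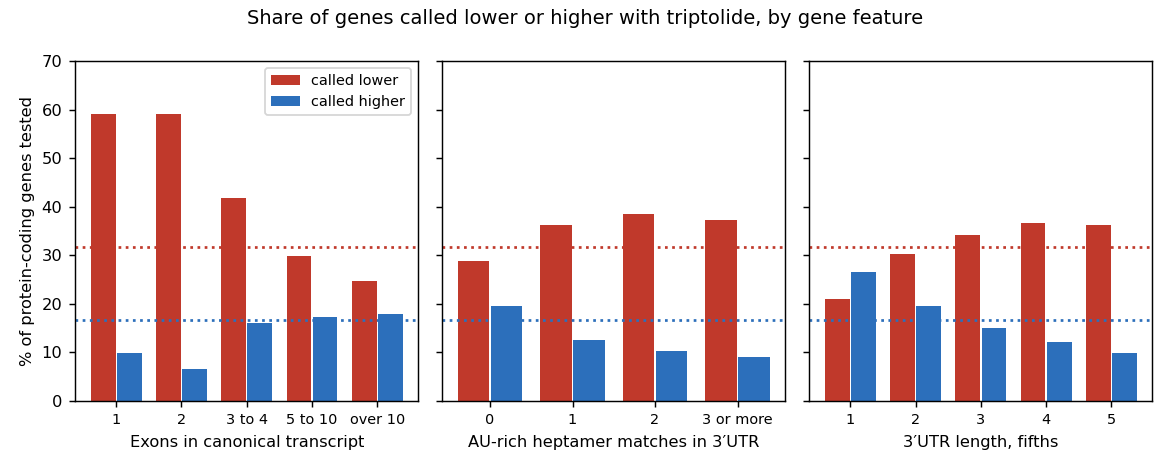
Percent of tested protein-coding genes called lower (red) or higher (blue) with triptolide at 10000 nM, by exons in the canonical transcript, AU-rich heptamer matches in the 3′UTR and quintiles of 3′UTR length from shortest (1) to longest (5); dotted lines mark the shares over all protein-coding genes, 31.6% lower and 16.6% higher. The share called lower is largest in genes with 1 or 2 exons, at 59.2% in both.

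Levels fell with transcript length, as with 3′UTR length, and rose with GC content. The median log2(Fold Change) was 0.44 in the shortest quintile of canonical transcripts and -0.49 in the longest, and -0.38 in the quintile of lowest GC content and 0.14 in the highest. Span of the gene in the genome showed no such order in its medians, which lay between -0.22 and -0.11 over its quintiles. The share called lower did fall with span, from 34.4% in the shortest quintile to 27.6% in the longest. The share called higher was 21.7% and 15.5% in the same quintiles. These features go together, and their separate parts were not tested. By quintiles of mean CPM in DMSO wells, from lowest to highest, the medians were -0.08, -0.43, -0.57, -0.24 and 0.40. In the highest of these quintiles 20.2% were called lower and 25.4% higher. The part of abundance was not tested apart from length or GC content either. Per well, the slope of log2 expression on GC was taken per 10 percentage points and relative to the DMSO mean. It was 0.099 to 0.22 in triptolide wells and -0.34 to 0.23 in DMSO wells, so the triptolide wells lay within the DMSO range. In triptolide wells this slope also holds the GC order itself, so it is no separate technical check, and a technical part was not tested. Processed pseudogenes had a median of 0.56 (565 tested), and RSEM divides reads between them and their parent genes, so their values are uncertain.

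The gene lists with the lowest medians were the mRNA decay adaptors and the immediate early factors, which cells switch on briefly. Of 9 decay adaptors of the BTG/TOB and ZFP36 families, 8 were called lower and 0 higher, with a median log2(Fold Change) of -5.05. Of 22 tested immediate early transcription factors, 20 were called lower and 0 higher, with a median of -4.67. JUN and MYC, both growth-linked transcription factors, were 68.4 and 58.0 times lower. MYC measured 2.03, 2.41 and 2.75 CPM with triptolide, against 121, 136 and 167 CPM at the lowest, median and highest DMSO well. The groups did not overlap for 20 of the 22 genes. EGR1 (log2(Fold Change) -5.86), FOS (-5.67), IER2 (-5.46) and ATF3 (-3.26) also fell, whereas EGR3, at 0.36 CPM in DMSO wells, measured -0.05 and was not called. BTG3 was the exception among the adaptors at 0.84, also not called, while its relatives BTG1 (-7.21) and BTG2 (-5.65) fell.

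Feedback inhibitors of signalling followed. Of 17 tested MAP kinase feedback genes, 14 were called lower and 0 higher (median -3.16), among them the phosphatases DUSP1 (-5.98) and DUSP5 (-6.05) and the adaptor SPRED2 (-3.25). SPRY2, the lowest, had 3 reads in all triptolide wells together, a level 195 times below the DMSO mean (95% exact Poisson interval 66.6 to 943, counting error only). ETV4, an ETS factor under the same pathway and the most abundant of the list in DMSO, measured 0.17 and was not called, although the related ETV5 fell by 2.46. Of 13 genes of the TGF-beta and BMP response, 11 were called lower and 1 higher (median -3.72). The inhibitors ID1 (-5.55), ID2 (-5.97), ID3 (-5.22) and SMAD7 (-4.29) fell. BAMBI, a decoy receptor, had 2 reads in the triptolide wells, a level 259 times below the DMSO mean (interval 71.7 to 2140).

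NF-kB feedback genes and cytokines were split. 10 of 19 were called lower and 0 higher (median -1.48). The inhibitors NFKBIA (-7.37), NFKBIE (-5.67) and NFKBIZ (-4.59) fell, and so did the subunits REL (-3.49) and RELA (-1.55), while the subunits NFKB2 (-0.75) and NFKB1 (-0.90) were not called. NFKBIB, another inhibitor of the family, measured 0.59 and was not called. The cytokines LIF and IL11 measured 0.89 and 0.68 and were not called.

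**Figure D2:**
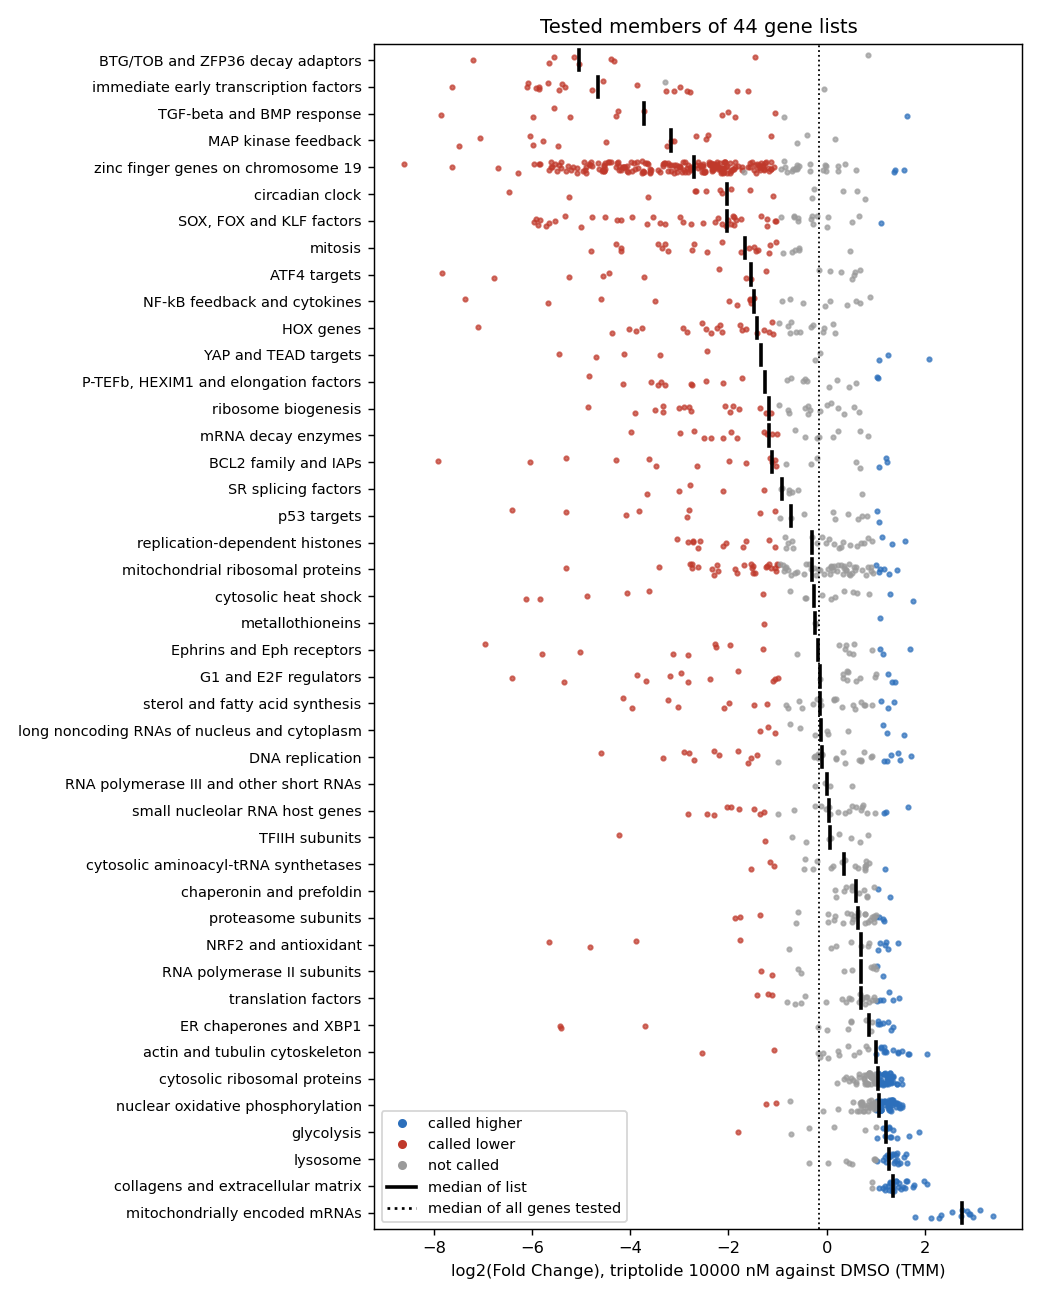
Log2(Fold Change) between triptolide at 10000 nM and DMSO for the tested members of 44 gene lists, ordered by median (black bar), with members called lower in red, higher in blue and not called in grey; the dotted line is the median of all genes tested, -0.17. Decay adaptors and immediate early factors lie at the top with medians of -5.05 and -4.67, and mitochondrially encoded mRNAs at the bottom with 2.76.

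Among transcription factor families the zinc finger genes of chromosome 19, many of them KRAB repressors in clusters of duplicates, were the most numerous group called lower among the 44 lists. Of 246 genes, 214 passed the filter on low counts and 188 of these (87.9%) were called lower and 3 higher, with a median of -2.70. ZNF14 had no read in any triptolide well and a mean of 1.23 CPM with DMSO, so it was at least 32.6-fold lower against a floor of 3 counts over the group. ZNF146, the most abundant in DMSO, fell by 2.34, and ZNF738, ZNF358 and ZNF428 rose by 1.57, 1.39 and 1.38. Because these genes share sequence, RSEM may divide reads between them. Chromosome 19 as a whole had 36.8% of its protein-coding genes called lower, and 23.9% without the genes named ZNF, against 31.6% over all chromosomes.

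Of 52 tested SOX, FOX and KLF factors, 38 were called lower and 1 higher (median -2.03). SOX9, a chondrocyte factor (-5.54), and FOXO1 (-5.96) fell, while FOXM1, which drives mitotic genes, rose by 1.12. Of 33 tested HOX genes 21 were called lower and 0 higher (median -1.41), whereas HOXB9, HOXC9, HOXB3 and HOXD10 measured between -0.07 and 0.18 and were not called. Clock genes had 11 of 16 called lower and 0 higher (median -2.04), led by the repressors NFIL3 (-6.47) and BHLHE40 (-5.25), while PER3 measured 0.78 and was not called although PER1 and PER2 fell by 2.66 and 2.13.

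In the heat shock list, 6 of 18 were called lower (33.3%) and 2 higher (11.1%), against 30.2% and 16.2% of all genes tested (median -0.26), so its count lay near the background. HSPA1B, an inducible HSP70 gene, measured 6.90, 7.0 and 4.81 CPM with triptolide, against 348, 433 and 547 CPM at the lowest, median and highest DMSO well, with no overlap. HSPA1A (-4.87), its co-chaperone DNAJB1 (-5.84), BAG3 (-3.61) and the constitutive HSPA8 (-4.06) fell too. HSPA1A and HSPA1B are nearly identical, so the division of reads between them is uncertain. HSP90AA1 (0.54), HSP90AB1 (0.61) and HSPD1 (0.36) were not called, and the small heat shock genes HSPB1 and CRYAB rose by 1.28 and 1.76.

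ER, antioxidant and ATF4 genes were also unevenly affected. Among 18 genes of ER chaperones and XBP1, the 3 called lower were the factor XBP1 (-5.40), DNAJB9 (-5.42) and HERPUD1 (-3.71), and the 7 called higher were chaperones and disulfide isomerases, such as PDIA6 (1.35), CANX (1.15) and CALR (1.09). Among 17 NRF2 and antioxidant genes, OSGIN1 (-5.65), HMOX1 (-4.83), GCLC (-3.89) and SRXN1 (-1.77) fell, and TXN (1.46), FTH1 (1.24), FTL (1.20) and 3 more rose. Among 17 ATF4 targets 10 were called lower and 0 higher: CHAC1, DDIT4 (-6.78), TRIB3 (-5.25), DDIT3 (-3.71) and ATF4 itself (-1.55) fell, whereas the serine synthesis enzymes PHGDH and PSAT1 measured 0.69 and 0.58 and were not called.

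Sterol and fatty acid synthesis did not stand apart from the background as a list, with 8 of 29 called lower (27.6%) and 3 higher (10.3%), against 30.2% and 16.2% of all genes tested, and a median of -0.13. The enzymes SQLE (-4.15) and MVK (-3.97) fell. SREBF2, which encodes a transcription factor of the pathway, rose by 1.38. Of 10 YAP and TEAD targets, CCN1 (-5.45), ANKRD1 (-4.69), AMOTL2 (-4.13), CCN2 (-3.40) and AJUBA (-2.43) were called lower, and CRIM1 (2.09), TGFB2 (1.26) and AXL (1.06) higher. CCN1 measured 5.86 to 7.25 CPM with triptolide and 224 to 377 CPM with DMSO, while CRIM1 measured 1033, 1082 and 1063 CPM against 180, 258 and 274 CPM, so that each was free of overlap in its own direction.

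Genes of apoptosis and of the p53 response were found at both ends. Of 21 genes of the BCL2 family and IAPs (median -1.11), 13 were called lower (61.9%) and 3 higher (14.3%). Among all genes tested the shares were 30.2% and 16.2%. MCL1, a short-lived survival protein, measured 2.85, 2.66 and 2.21 CPM with triptolide, against 130, 166 and 244 CPM at the lowest, median and highest DMSO well. It was 65.5 times lower (padj = 1.30e-17, edgeR). The pro-apoptotic BH3-only genes BBC3 (-5.30) and BCL2L11 (-3.61) and the effector BAK1 (-3.48) fell, and BMF had 1 read. BAX (1.06), BID (1.21) and the survival gene BCL2L2 (1.23) rose. BCL2L1, which encodes BCL-XL, measured -0.32 and was not called. Among 19 p53 targets (median -0.72), 8 were called lower (42.1%) and 2 higher (10.5%), the latter below the 16.2% of all genes tested. SESN2 fell by 6.41 and GADD45A by 2.85, while CDKN1A (-0.72) and MDM2 (-0.94) were not called and FDXR rose by 1.02.

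**Figure D3:**
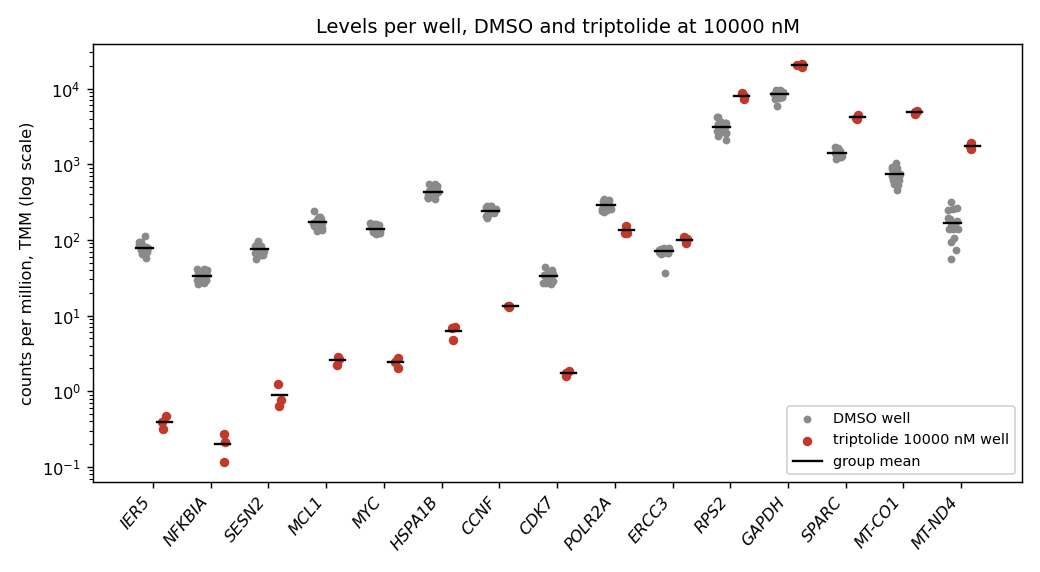
CPM (TMM scaling, log axis) of 15 genes in the 18 DMSO wells (grey) and the 3 wells with triptolide at 10000 nM (red), with group means as black lines. No gene shown has overlapping groups: IER5 to POLR2A lie lower with triptolide, and ERCC3 to MT-ND4 higher, from 1.41-fold for ERCC3 to 10.5-fold for MT-ND4.

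The transcription machinery that triptolide acts on was itself uneven. ERCC3, the drug's target, measured 108, 103 and 89.9 CPM with triptolide against 36.7, 73.1 and 77.9 CPM at the lowest, median and highest DMSO well, a log2(Fold Change) of 0.50 that was under the threshold of size. Of 10 TFIIH subunits (median 0.07), 2 were called lower (20%) and 0 higher, against 30.2% and 16.2% of all genes tested. CDK7, the kinase of TFIIH, fell by 4.23, from 26.2 to 44.1 CPM in DMSO wells to 1.75, 1.60 and 1.82 CPM, while its partners CCNH (0.05) and MNAT1 (0.08) were not called. Of 12 subunits of RNA polymerase II, POLR2D (-1.34) and the largest subunit POLR2A (-1.11) were called lower and POLR2I (1.14) and POLR2L (1.02) higher. That was 16.7% in each direction, below the share of all genes called lower and near the share called higher. With DESeq2, POLR2A was no longer past the size threshold.

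Pause release factors fell more widely. Of 22 genes of the P-TEFb, HEXIM1 and elongation list, 11 were called lower (50%) and 2 higher (9.09%), with a median of -1.26. Among all genes tested the shares were 30.2% and 16.2%. Those called lower included the cyclin CCNT1 (-4.84), its kinase CDK9 (-2.12), the kinases CDK12 (-2.75) and CDK13 (-3.44), and the inhibitors HEXIM1 (-3.59) and MEPCE (-4.15). NELFE and NELFCD, subunits of the pausing factor NELF, rose by 1.04 and 1.02, and SUPT5H measured 0.60 and was not called. Of 12 SR splicing factors 5 were called lower (41.7%) and 0 higher, against 30.2% and 16.2% of all genes tested. SRSF3, called lower, measured 46.4, 38.4 and 39.9 CPM against 254 to 320 CPM in DMSO wells. Decay enzymes had 12 of 20 called lower (60%) and 0 higher (median -1.17). The deadenylase subunit CNOT6L fell by 3.99 and the helicase DDX6 by 2.11, whereas the scaffold CNOT1 (-0.64) and the exonuclease XRN2 (-0.19) were not called.

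Among cell cycle genes the mitotic list was the lowest. Of 26 mitosis genes 20 were called lower and 0 higher (median -1.67). CCNF, a cyclin F-box protein, measured 13.6, 13.2 and 12.8 CPM with triptolide against 192 to 283 CPM with DMSO. AURKA (-4.29), CCNA2 (-3.35), PLK1 (-2.73) and CCNB1 (-2.69) also fell. CDC20, the activator of the anaphase-promoting complex, fell by 1.18 and TOP2A measured -0.57 without being called. Of 35 replication genes 11 were called lower (31.4%) and 6 higher (17.1%), close to the 30.2% and 16.2% of all genes tested (median -0.10). Among those called, the licensing genes CDT1 (-3.34), CDC6 (-2.92) and ORC1 (-2.80) and the clamp PCNA (-2.29) fell, while TYMS (1.72) and TK1 (1.16), which make thymidylate, and CDC45 (1.49) rose. Of 25 tested G1 and E2F regulators 12 were called lower (48%) and 3 higher (12%), while their median of -0.14 lay near the -0.17 of all genes tested. CDKN1B, which encodes the inhibitor p27, fell by 6.42 and CCNE1 by 2.82, whereas CDK4 (1.34), TFDP1 (1.38) and E2F1 (1.26) rose and RB1 measured 0.68.

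Replication-dependent histone genes, whose mRNAs mostly lack a poly(A) tail and are poorly caught by this poly(A)-selected method, had 35 of 65 tested, with 12 called lower (34.3%) and 3 higher (8.57%), near or below the 30.2% and 16.2% of all genes tested. H2BC12, the member of highest TPM in DMSO wells, rose by 1.60 and H1-2 by 1.33.

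Genes that build ribosomes and genes of the ribosome itself differed in direction. Of 30 ribosome biogenesis genes 16 were called lower and 0 higher (median -1.18), among them NOP16 (-4.86), WDR43 (-3.91), the RNA polymerase I subunit POLR1B (-3.50) and the methyltransferase NOP2 (-3.02). The abundant nucleolar genes NPM1 (0.36), NCL (0.00043) and FBL (0.56) were not called. In contrast, all 79 cytosolic ribosomal protein genes tested had a log2(Fold Change) above 0, from 0.21 (RPL23) to 1.54 (RPS12). Of these, 44 were called higher and 0 lower (median 1.04), and in 72 the triptolide wells lay above all DMSO wells. The list took 7.04% ± 0.70 (SD, n = 18) of expected counts with DMSO and 10.0% ± 0.17 (SD, n = 3) with triptolide. Of 30 translation factors 6 were called higher (20%), near the 16.2% of all genes tested, and 3 lower (10%), against 30.2%. Their median was 0.71, with EEF1A1 at 0.86, PABPC1 at 1.36 and the cap-binding EIF4E at -1.41.

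Other housekeeping complexes had medians between those of all genes (-0.17) and of the ribosomal proteins (1.04), and a smaller share of their members than of all genes was called in each direction. Proteasome subunits had a median of 0.64 (4 of 31 higher, 3 lower), chaperonin and prefoldin 0.60 (2 of 14 higher, 0 lower) and aminoacyl-tRNA synthetases 0.34 (1 of 20 higher, 3 lower). Within the proteasome, PSMD12, PSMC6 and PSMD6 fell by 1.86, 1.77 and 1.35, while PSMD2 and PSMB4 rose by 1.15 and 1.16.

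Apart from mitochondrially encoded mRNAs, the lists with the highest share called higher were those of the extracellular matrix, lysosome and glycolysis. Of 28 genes of collagens and extracellular matrix, 26 (92.9%) were called higher and 0 lower, with a median of 1.36. FN1, fibronectin, measured 5162, 4420 and 5036 CPM with triptolide against 1288, 1455 and 1621 CPM at the lowest, median and highest DMSO well. SPARC, a collagen-binding glycoprotein of bone, measured 4008, 4076 and 4492 CPM against 1183, 1380 and 1692 CPM. FN1 was 3.37-fold and SPARC 3.01-fold higher without overlap, and the list went from 1.41% ± 0.12 of expected counts (SD, n = 18) to 2.66% ± 0.12 (SD, n = 3). LAMA4 (2.04), COL3A1 (1.98) and THBS1 (1.78) had the largest changes in the list.

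Of 28 lysosomal genes 20 were called higher and 0 lower (median 1.27), among them the proteases CTSZ (1.63) and CTSD (1.33), the cholesterol carrier NPC2 (1.57) and the glucosidase GAA (1.64). Glycolysis had 12 of 18 called higher and 1 lower (median 1.20). GAPDH measured 19152, 20293 and 21167 CPM with triptolide and 5953 to 9466 CPM with DMSO, ENO2 rose by 1.87, and the gatekeeper hexokinase HK2 fell by 1.81. In the cytoskeleton 14 of 27 were called higher and 2 lower (median 1.01), TAGLN (2.04) and TPM1 (1.67) leading and TUBB4B, a tubulin at 1043 to 1630 CPM in DMSO wells, falling to 242, 239 and 219 CPM. ACTB (1.01) and GAPDH (1.27), common reference genes, both rose on this scale. ACTB sat at the size threshold and lost its call without DMSO replicate 10, without triptolide replicate 3, under the replicate block and under both other filters on low counts.

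Mitochondrial genes fell into 3 groups with different medians. The mRNAs of the mitochondrial genome rose most: 13 of 13 were called higher, with a median log2(Fold Change) of 2.76, between 1.80 (MT-ATP8) and 3.39 (MT-ND4). MT-CO1, a subunit of cytochrome c oxidase, measured 5121, 4966 and 4600 CPM with triptolide against 461, 741 and 1041 CPM at the lowest, median and highest DMSO well. MT-ND4, of complex I, measured 1909, 1761 and 1574 CPM against 56.5, 158 and 313 CPM. MT-ATP8 was the one whose groups overlapped. Of 78 nuclear genes of oxidative phosphorylation, which build the same complexes, 45 were called higher and 2 lower (median 1.07), UQCRQ (1.53) and NDUFB2 (1.53) at the top and SDHA (-1.24) and NDUFV3 (-1.04) at the bottom. Of 78 mitochondrial ribosomal proteins, which translate the mitochondrial mRNAs, 26 were called lower (33.3%) and 6 higher (7.69%). All genes tested gave 30.2% and 16.2%. The list ran from MRPL44 at -5.32 to MRPL33 at 1.44, and its median of -0.30 lay near the -0.17 of all genes tested. With no filter on low counts, its median lay above that of all genes tested.

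Over the whole library, mitochondrial mRNAs took 1.09% ± 0.073 (SD, n = 3) of expected counts with triptolide and 0.243% ± 0.058 (SD, n = 18) with DMSO, a ratio of 4.47. The share of lncRNA counts went from 0.902% ± 0.040 to 0.668% ± 0.0080, and the 100 most abundant genes went from 19.4% ± 1.06 to 26.5% ± 0.45 of counts. The share of nuclear protein-coding counts went from 97.7% ± 0.21 to 97.0% ± 0.14, and the number of genes with at least 1 TPM from 14669 ± 429 to 12358 ± 108. Each of these differences reached p = 0.00150, the smallest a 2-sided exact permutation test can give for 3 against 18 wells, and padj = 0.00180 over 6 shares. Pseudogenes took 0.536% and 0.527% of counts, a difference that was not significant in the exact permutation test (p = 0.374).

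**Figure D4:**
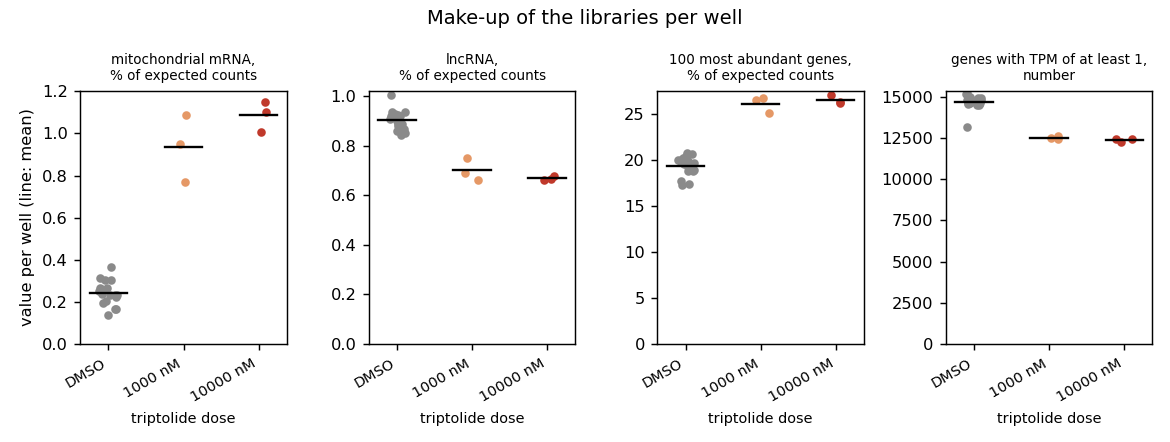
Make-up of each library, with 1 point per well and the group mean as a line, for DMSO (18 wells) and triptolide at 1000 nM and 10000 nM (3 wells each): percent of expected counts in mitochondrial mRNA, lncRNA and the 100 most abundant genes, and the number of genes with at least 1 TPM. Wells at 10000 nM lie between 1.01% and 1.15% mitochondrial mRNA, above all DMSO wells, whose highest value is 0.367%.

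Noncoding RNAs did not move as a block. Of 2377 lncRNA genes tested, 26.8% were called lower and 13.6% higher, against 30.2% and 16.2% of all genes tested. Their median was -0.22. NEAT1, the scaffold of paraspeckles, measured 128, 126 and 144 CPM with triptolide against 35.1, 54.3 and 92.1 CPM at the lowest, median and highest DMSO well, and rose by 1.22. MALAT1, a nuclear speckle RNA, measured 50.6, 47.8 and 50.6 CPM within the DMSO range of 28.2 to 95.9 CPM and was not called. H19 and DANCR rose by 1.57 and 1.14, whereas CYTOR and MIR22HG fell by 1.06 and 1.35. Host genes of small nucleolar RNAs had 9 of 29 called lower (31.0%) and 3 higher (10.3%), near or below the shares of all genes tested. Their median was 0.04, from SNHG3 at -2.82 to SNHG14 at 1.65. Among 4 tested RNAs made by RNA polymerase III, RN7SL1 (-0.04), RN7SL2 (-0.23), RPPH1 (0.06) and RMRP (0.52), 0 were called. These short RNAs lack a poly(A) tail and their counts here are what poly(A) selection left.

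The highest lncRNA gene was ENSG00000280441 on chr21:8380643-8454792 (GRCh38), at 13.2, 12.4 and 15.2 CPM with triptolide. It had 1081 reads in those wells and 79 in all DMSO wells, 14 of which had none, with 73 left when DMSO replicate 10 was set aside. With DESeq2 it was not called (padj = 0.165). Among named genes beyond the mitochondrial ones, B4GALNT4, a glycosyltransferase, measured 33.5, 36.4 and 38.6 CPM against 3.17 to 6.73 CPM in DMSO wells, a log2(Fold Change) of 2.95.

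To ask what the higher dose added, triptolide at 10000 nM was compared directly with 1000 nM, with 3 wells each. Of 15666 genes tested 3 were called lower at 10000 nM (0.0191%) and 0 higher (0%), with edgeR, 881 genes had an unadjusted p-value under 0.05, and DESeq2 called 33 lower and 1 higher. The 3 genes were TOB2 (-1.97), an anti-proliferative adaptor of CCR4-NOT, the mRNA exporter NXF1 (-1.29) and POLR2A (-1.19), each with padj = 0.0301. On the scale of that fit POLR2A measured 90.0, 90.0 and 110 CPM at 10000 nM and 223, 233 and 205 CPM at 1000 nM, and TOB2 measured 2.28 to 2.91 CPM, against 9.07 CPM in the lowest well at 1000 nM. Neither gene overlapped between doses. The 1000 nM wells were uneven in depth, at 9.63, 10.7 and 57.4 mil. Without the deepest of them, replicate 3, 121 genes were called lower and 104 higher, and without any other single well 0 were called in either direction. A fit blocked on replicate called 0, so all 3 calls were lost.

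Homoharringtonine, which blocks translation elongation at the ribosome, served as a comparison with another block at the same dose and time. Of 17679 genes tested, 5335 (30.2%) were called higher and 6696 (37.9%) lower with triptolide than with homoharringtonine, and the median log2(Fold Change) was -0.17. Of the 44 lists, immediate early factors had the lowest median, with 22 of 23 lower with triptolide at a median of -7.60. JUN had a log2(Fold Change) of -8.81 and NFKBIA of -9.83. At the other end, 24 of 27 collagen and matrix genes were higher with triptolide and 0 lower (median 3.21), COL1A1 by 4.97 and SPARC by 4.29. Ribosomal proteins (68 of 79 higher, 0 lower, median 1.59) and mitochondrially encoded mRNAs (12 of 13 higher, median 2.68) were also on the triptolide side. HOX genes gave 8 higher and 8 lower of 27 tested, with a median of 0.05, although 21 of 33 were below DMSO with triptolide. Zinc finger genes of chromosome 19 were lower with triptolide in 191 of 214 (median -4.25).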

How the data were processed

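U2OS cells in 24-well plates were treated for 12 h, and poly(A)-selected TruSeq Stranded mRNA libraries were made by the authors. Per the labels, the submitters' processing notes name RSEM, HTSeq, DESeq2 and build GRCh38. Versions are not given in the sources used here. The deposited expected counts are the RSEM estimates of reads per gene, not normalized. The deposited TPM values, also from RSEM, were adjusted for transcript length and library total before deposit. Groups came from the labels. The middle dose is 1000 nM in the labels, used here, and the same in the study's results text, but 1 nM in its methods. Genes were named from GENCODE release 44, which held 56104 of the 60371 identifiers.

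Expected counts were rounded and tested with the quasi-likelihood functions of edgeR 4.0.16 under R 4.3.3 (TMM scaling, filterByExpr with a minimum count of 10, glmQLFit, glmQLFTest, Benjamini-Hochberg). DESeq2 1.42.0, other scalings, other filters, a replicate block and fits leaving out wells were alternatives. The replicate block kept only the DMSO wells whose replicate numbers also occur among the triptolide wells. Permutation tests used scipy 1.17.1. The scripts were tested on simulated data. Depth was 34.7 to 38.6 mil with triptolide, and intervals cover counting error only, as PCR copies could not be told from separate molecules. No pair of triptolide wells was a repeat of 1 library (chi-square per degree of freedom 4.46 to 20.8).

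The comparison, the members and the 44 gene lists were chosen with earlier results of these data known. Named genes are the 10 lowest and highest protein-coding and 4 lowest and highest lncRNA genes without overlap, each list's lowest, highest and most abundant member, genes called between doses at 10 CPM or more, and ERCC3, POLR2A, MYC, MCL1, CDC20 and CCNF. TOB2, below that level, and the other list members printed as examples were chosen after their values were seen. Other compounds and doses, and FPKM values, were not used here. Results for some genes that the rule names are not reported here.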

Additional observations from a re-analysis of the deposited data

Results flagged for a closer look

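The effect of triptolide differed between doses in 3 genes by the direct edgeR test of 10000 nM against 1000 nM. TOB2 was lower at 10000 nM by 1.97 on the log2 scale, with a log2(Fold Change) of -1.9657. NXF1 had a log2(Fold Change) of -1.2906 and POLR2A of -1.1907. All 3 wells of the higher dose lay below all 3 of the lower dose for each gene. Leaving out any 1 of the 6 wells other than replicate 3 at 1000 nM left 0 genes called, leaving out that replicate gave 104 higher and 121 lower, and the fit with the replicate block called 0. The cause was not tested.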

How the results depend on the processing

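Counts of changed genes depended on scale and filter. Against DMSO, 3005 genes higher and 5602 lower became 1273 and 2354 with at least 10 counts in every well, and 8 and 18041 scaled to mitochondrial mRNAs. Library sizes alone gave 785 higher and 7599 lower, RLE size factors 3946 and 4998, and DESeq2 3891 and 4986. Leaving out single wells gave 2832 to 3051 higher and 5445 to 5585 lower. Against homoharringtonine the mitochondrial scale gave 430 higher and 14084 lower, and leaving out wells gave 5456 to 5576 and 6804 to 6911. Between doses, 0 higher and 3 lower became 1 and 33 with DESeq2, 1 and 12 with no filter, and 5 lower with at least 10 counts in every well. Leaving out wells there gave 0 to 104 higher and 0 to 121 lower. The median of mitochondrial ribosomal proteins relative to all genes turned from -0.13 to 0.14 with no filter. With expected counts the nuclear protein-coding share differed by -0.700 percentage points (adjusted p = 0.00180, exact permutation test). With TPM in their place it differed by -0.669 (adjusted p = 0.293, exact permutation test), and the pseudogene share by 0.0957 (adjusted p = 0.0415, exact permutation test). The causes were not tested.

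Differences in shares between triptolide and DMSO, leaving out single wells, were 0.811 to 0.883 percentage points for mitochondrial mRNA, -0.774 to -0.634 for nuclear protein-coding, -0.238 to -0.228 for lncRNA, -0.0051 to 0.0216 for pseudogenes and 6.88 to 7.28 for the 100 most abundant genes.

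Replicate numbers did not pair the wells: same-numbered wells correlated at -0.08, -0.08 and 0.23 between triptolide and DMSO. With the replicate block, 2966 genes were higher and 5049 lower than in DMSO, 5326 and 6691 against homoharringtonine, and 0 and 0 between doses. Against DMSO that fit left out the DMSO wells whose numbers no triptolide well shares, and it tested 16939 genes in place of 18536.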
